A study of Mus musculus with 6 samples.

Results

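Genomic imprinting leaves a gene active on the copy inherited from one parent and silent on the other, through DNA methylation set down in the germ line at control regions that several neighbouring genes share. The data described here are the levels of 10 imprinted transcripts in cells under reprogramming, of 54331 genes listed in the series. The members are a list of gene symbols: *H19* and *Igf2* of distal chromosome 7, *Dlk1*, *Meg3*, *Rian* and *Mirg* of the *Dlk1-Dio3* domain, and *Peg3*, *Mest*, *Peg10* and *Grb10*, which lie in 4 further domains. All 10 were found and all 10 reached the mean level of 1 TPM (a transcript level scaled to the same total in every well and already divided by transcript length) that the test required, as did 15382 genes in total.

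The cells were fibroblasts pooled from several male E13.5 mouse embryos of a mixed C57BL/6, DBA/2 and ICR background that carry EGFP under the Oct4 promoter and enhancer as a transgene (OE-MEFs). Every well had received retroviruses for Oct4, Sox2 and Klf4 (OSK) together with AKT-MER (A), a myristoylated AKT fused to a modified estrogen receptor, and only the ligand differed. The OSKA + 4OHT group (3 wells) was given 4-hydroxytamoxifen, which activates AKT-MER, and the OSKA − 4OHT group (3 wells) was given the ethanol vehicle, both sampled 10 days after transduction (10 dpi). The wells came from cells transduced together, so the p-values measure the spread between wells, which may be technical. No library without AKT-MER was analysed here, so the ligand itself and the AKT activity it turns on cannot be told apart.

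The *Dlk1-Dio3* domain is known in this field because its maternal noncoding RNAs, *Meg3* (also called Gtl2), *Rian* and *Mirg*, are silenced in some induced pluripotent stem cells, and because that silencing goes with poor contribution to chimeras. *H19* and *Igf2* share enhancers. On the maternal copy the insulator protein CTCF at their control region leaves the enhancers to *H19*, and on the paternal copy the enhancers go to *Igf2*. *H19*, *Meg3*, *Rian*, *Mirg* and, in most tissues, *Grb10* are read from the maternal copy, while *Igf2*, *Dlk1*, *Peg3*, *Mest* and *Peg10* are read from the paternal copy. The libraries give the sum over both copies, so none of the values below says which parental copy was read.

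Several members carry microRNAs in their transcripts, and a reader following the levels of the hosts needs to know which small RNAs are cut from them. The mature sequences below are those of *H19*, the most abundant member, and of *Meg3* and *Mest*, hosts that were called higher. They are from RefSeq on GRCm38.p6, with the seed (bases 2 to 8) in capitals.
miR-675-5p of *H19*: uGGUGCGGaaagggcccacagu
miR-675-3p of *H19*: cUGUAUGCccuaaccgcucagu
miR-770-5p of *Meg3*: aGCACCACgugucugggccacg
miR-770-3p of *Meg3*: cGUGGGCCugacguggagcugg
miR-1906 of *Meg3*: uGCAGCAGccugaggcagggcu
miR-335-5p of *Mest*: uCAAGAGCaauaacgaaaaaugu
miR-335-3p of *Mest*: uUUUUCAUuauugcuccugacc
All 7 seeds differ from each other. The same table places 1 hairpin in *Igf2*, 3 in *Rian* and 14 in *Mirg*, and none in *Dlk1*, *Peg3*, *Peg10* or *Grb10*. Over the whole stretch from the start of *Meg3* to the end of *Mirg*, chr12:109541001-109749460 on the plus strand, it lists 54 hairpins with 106 mature sequences and 97 distinct seeds. In 8 cases a seed is shared between 2 miRNAs of the stretch, as in the following pair, shown because it is among the few with a common seed.
miR-379-3p: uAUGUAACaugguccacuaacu
miR-411-3p: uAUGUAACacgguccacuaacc
The polyA libraries do not measure mature miRNAs, and their levels are not known from these data.

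By level, the members spanned more than 2 orders of magnitude in both groups, from *H19* at 416 ± 102 TPM (SD, n = 3) down to *Dlk1* at 1.56 ± 0.430 TPM in the OSKA − 4OHT group. In that group the order was *H19*, *Grb10*, *Rian*, *Meg3*, *Igf2*, *Peg10*, *Peg3*, *Mest*, *Mirg* and *Dlk1*. The wells of *Grb10* and *Rian* overlapped, as did those of *Meg3* and *Igf2*, so the order within these pairs is not beyond the spread. In the OSKA + 4OHT group *Peg10* moved to the fourth place, ahead of *Meg3* and *Igf2*, and the overlapping neighbours were *Grb10* with *Rian* and *Igf2* with *Peg3*.

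**Figure D1:**
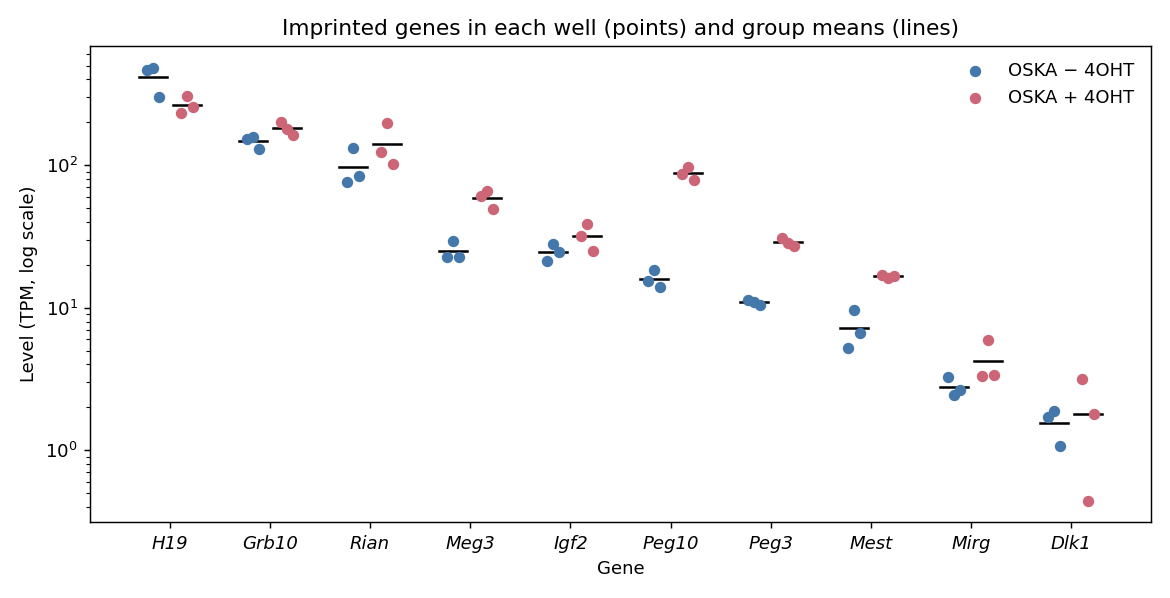
Level of each imprinted gene in each well, in TPM on a log axis, for the OSKA − 4OHT group (blue, 3 wells) and the OSKA + 4OHT group (red, 3 wells), with group means as black lines and genes ordered by their OSKA − 4OHT mean. The wells of *Peg10*, *Peg3* and *Meg3* separate by more than their spread. Those of *Mest* separate, by less than the spread of its control wells on this axis. Those of *Mirg* and *Grb10* lie close together, and those of *H19*, *Rian*, *Igf2* and *Dlk1* overlap.

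Of the 10 members, 4 rose and 0 fell in the OSKA + 4OHT group in limma-trend on log2(TPM + 0.5) with Benjamini-Hochberg adjustment over all 15382 tested genes, where 3.52% of genes rose and 1.97% fell at an adjusted p under 0.05. The 4 were *Peg10*, *Peg3*, *Meg3* and *Mest*, and 5 members had an unadjusted p under 0.05, as had 21.3% of all tested genes, the fifth being *H19*. Leaving out a well gave 1 to 3 risen members: 1 without OSKA + 4OHT replicate 1, 2 without OSKA + 4OHT replicate 2 or OSKA − 4OHT replicate 1 or 3, and 3 otherwise. In 6 of the 10 members every OSKA + 4OHT well lay above every OSKA − 4OHT well, as it did in 18.1% of all tested genes, and in 0 of the 10 every well lay below, as it did in 10.0%. The members' median log2 fold change was 0.50, beside 0.14 over all tested genes. Of the 5 paternally expressed members 3 rose, with a list median of 1.20, and of the 5 maternally expressed members 1 rose, with a median of 0.48. Other imprinted genes did not show such a split. Their medians were 0.07 over 19 tested paternally expressed and 0.02 over 12 tested maternally expressed genes. All fold changes carry the pseudocount of 0.5, so those of genes at low levels are too small.

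**Figure D2:**
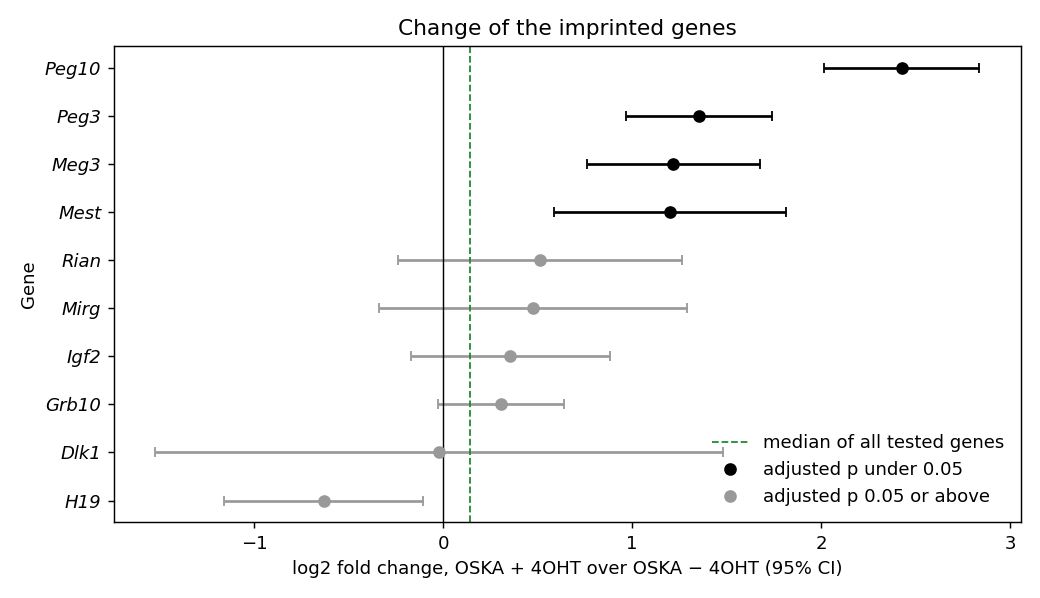
The log2 fold change of each member on the log2(TPM + 0.5) scale, OSKA + 4OHT over OSKA − 4OHT, with its 95% confidence interval (3 wells a group), black where the adjusted p was under 0.05 and grey otherwise, beside the median of all tested genes (dashed green, 0.14). *Peg10* stands highest at 2.43, *Peg3*, *Meg3* and *Mest* lie between 1.20 and 1.35, and *H19* is the lowest at -0.63.

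*Peg10* is a retrotransposon-derived gene with gag-like and pol-like reading frames that the placenta needs. Its gene, ENSMUSG00000092035 at chr6:4747306-4760517 on the plus strand of GRCm38, was at 15.4, 18.3 and 14.1 TPM in OSKA − 4OHT replicates 1, 2 and 3, and reached 87.2, 96.8 and 78.3 TPM in the 3 OSKA + 4OHT wells in the same order, as for all values below. The treated wells lay far above the control wells, and the spread within each group was small beside the gap. The group means stood at a ratio of 5.50, and the log2 fold change was 2.43 ± 0.17 (SE, n = 3 and 3), with an adjusted p of 0.00347 in limma-trend. *Peg10* passed the test in all 6 fits that left out a well. *Sgce*, which codes for epsilon-sarcoglycan and shares the control region at the *Peg10* start from the opposite strand, was at 17.6, 14.2 and 24.4 TPM without the ligand and at 40.0, 19.6 and 25.3 TPM with it. Its groups overlapped and its log2 fold change of 0.56 ± 0.33 did not pass (limma-trend adjusted p = 0.389). Within each well, *Peg10* stood at 0.576 to 1.29 times *Sgce* in the OSKA − 4OHT group and at 2.18 to 4.93 times in the OSKA + 4OHT group, with no overlap. Of the 8 tested genes of this domain and its flanks, *Peg10* alone passed in either direction, beside 3.52% risen and 1.97% fallen of all tested genes, the others being *Sgce*, *Ppp1r9a*, *Casd1*, *Pon2*, *Pon3*, *Tfpi2* and *Pdk4*.

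*Peg3* codes for a large zinc finger protein of the nucleus. It lies at chr7:6703892-6730431 on the minus strand (ENSMUSG00000002265). Its level was 11.3, 11.1 and 10.5 TPM in the OSKA − 4OHT wells and 30.9, 28.4 and 27.0 TPM in the OSKA + 4OHT wells. The wells of each group were close to each other, and the groups were far from overlapping. *Peg3* rose by 1.35 ± 0.16 on the log2 scale (SE), with an adjusted p of 0.0098 in limma-trend. Without OSKA + 4OHT replicate 1 the adjusted p was 0.0519, and *Peg3* passed in the other 5 fits that left out a well. The neighbours that share its control region were close to the lower limit of the data. *Usp29*, transcribed from the same region on the opposite strand, was listed at 0 in the 3 OSKA − 4OHT wells and at 0.466, 0.682 and 1.10 TPM in the OSKA + 4OHT wells, and was too low to be tested. *Zim1* and *Zim2* were above 0 in 2 wells and 1 well, and *Zfp264* and *Zim3* were listed at 0 in all 6.

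*Mest* codes for an enzyme of the alpha/beta hydrolase fold that mesoderm and growing fat express. It spans chr6:30723547-30748465 on the plus strand (ENSMUSG00000051855). Its level was 5.23, 9.61 and 6.70 TPM without the ligand and 17.1, 16.2 and 16.8 TPM with it. The treated wells were nearly equal, and the control wells were lower and more scattered. On the log2 scale *Mest* rose by 1.20 ± 0.25 (SE), and the adjusted p of 0.0498 in limma-trend was just inside the threshold. The call was lost in each of the 6 fits that left out a well (adjusted p from 0.0557 to 0.168) and in 6 of the 8 other alternatives that kept the deposited wells unpaired, described at the end, while the direction stayed the same. *Copg2*, a coat protein gene that runs against *Mest* from the other side and is imprinted in some tissues, was at 43.1, 29.4 and 53.4 TPM and then 44.8, 32.4 and 23.9 TPM, with overlapping groups. The ratio of *Mest* to *Copg2* in a well was 0.121 to 0.326 in the OSKA − 4OHT group and 0.382 to 0.701 in the OSKA + 4OHT group. Both genes overlap in the annotation on opposite strands, and the strand setting of the quantification is not given in the sources used here.

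*Meg3* is the long noncoding RNA at the head of the maternal transcripts of the *Dlk1-Dio3* domain, chr12:109541001-109571726 on the plus strand (ENSMUSG00000021268). Its level was 22.8, 29.6 and 22.7 TPM in the OSKA − 4OHT wells and 61.1, 66.2 and 49.3 TPM in the OSKA + 4OHT wells. The lowest treated well was above the highest control well. *Meg3* rose by 1.22 ± 0.19 on the log2 scale (SE) with an adjusted p of 0.0214 in limma-trend, and *Meg3* passed in 2 of the 6 fits that left out a well (adjusted p from 0.0394 to 0.0907). It lost the call without any one of OSKA − 4OHT replicates 1 and 3 and OSKA + 4OHT replicates 1 and 2, with log2 fold changes between 1.13 and 1.19. A predicted gene, *Gm27000*, has a transcript 99.9% identical to *Meg3* over 842 bases. It was at 4.76 TPM in OSKA − 4OHT replicate 1 and at 0 elsewhere, so reads of *Meg3* may have been given to it in that well.

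The sequences before *Peg3*, *Meg3* and *Mest* are given here because these genes rose together. Each is the 250 bases before an annotated start, from the RefSeq promoter table on GRCm38.p6, and capitals mark TGCCGC or its reverse complement GCGGCA, the short motif that the zinc finger protein ZFP57 binds when methylated.
*Peg3*, chr7:6730420-6730669, minus strand: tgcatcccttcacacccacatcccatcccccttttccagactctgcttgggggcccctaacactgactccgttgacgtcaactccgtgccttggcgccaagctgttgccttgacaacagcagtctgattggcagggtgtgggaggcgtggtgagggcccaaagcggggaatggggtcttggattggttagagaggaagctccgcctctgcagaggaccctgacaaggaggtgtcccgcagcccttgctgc
*Meg3*, chr12:109540746-109540995, plus strand: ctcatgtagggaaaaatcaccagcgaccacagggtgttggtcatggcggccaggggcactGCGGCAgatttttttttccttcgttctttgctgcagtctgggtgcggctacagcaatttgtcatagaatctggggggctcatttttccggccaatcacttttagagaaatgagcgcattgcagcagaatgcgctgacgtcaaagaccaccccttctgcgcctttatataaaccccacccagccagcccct
*Mest*, chr6:30737800-30738049, plus strand: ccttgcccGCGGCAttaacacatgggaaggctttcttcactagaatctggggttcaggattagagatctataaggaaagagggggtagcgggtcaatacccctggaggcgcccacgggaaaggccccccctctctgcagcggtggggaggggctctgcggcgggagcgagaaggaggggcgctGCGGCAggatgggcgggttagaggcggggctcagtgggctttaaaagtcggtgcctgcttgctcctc
TGCCGC was found on either strand 0 times in the *Peg3* stretch, 1 time in the *Meg3* stretch and 2 times in the *Mest* stretch. Another annotated start of *Meg3* and another of *Mest*, whose sequences are not printed, have windows with 0 matches. In windows of 300 bases (250 before and 50 after a start), 5 of the 15 windows matched to 8 members (all but *H19* and *Peg10*) held the motif, beside 11.6% of all 32851 windows, and the members' windows include overlapping ones of the same gene. The motif GCCATNTT, the core of the YY1 binding sequence, searched on both strands, was in 0 of the 15 and in 6.10% of all windows. The printed stretches of 250 bases hold 8 CpG dinucleotides (*Peg3*), 10 (*Meg3*) and 14 (*Mest*). Over the members' 15 windows of 300 bases the number ran from 0 in *Rian*, 1 in a second window of *Meg3* and 2 in a window of *Igf2* to 45 in the *Grb10* window at chr11:12037371-12037670, beside a median of 7 over all windows. These are counts of letters, and no binding or methylation was measured in these libraries.

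*Rian* and *Mirg* lie downstream of *Meg3* on the same strand and did not pass. *Rian*, a host of small nucleolar RNAs at chr12:109603940-109661716 (ENSMUSG00000097451), was at 76.7, 133 and 83.7 TPM without the ligand and at 125, 197 and 102 TPM with it. The second control well was above 2 of the treated wells, and the log2 fold change of 0.52 (95% CI -0.24 to 1.27) had an adjusted p of 0.406 in limma-trend. This fold change was 0.248 without OSKA + 4OHT replicate 2 and 0.755 without OSKA − 4OHT replicate 2. A stretch of at most 183 bases of *Rian* is 90% or more identical to transcripts of 358 other genes, so part of its value may be uncertain. *Mirg*, at chr12:109729764-109749460 (ENSMUSG00000097391), was at 3.27, 2.46 and 2.66 TPM and then 3.33, 5.92 and 3.35 TPM. Its groups did not overlap, but the gap was only between 3.27 and 3.33 TPM, and the log2 fold change of 0.48 (95% CI -0.34 to 1.29) had an adjusted p of 0.486 in limma-trend. Without OSKA + 4OHT replicate 2 the fold change of *Mirg* was 0.229, and without OSKA + 4OHT replicate 1 it was 0.601. The 3 noncoding RNAs together added up to 103, 165 and 109 TPM in the OSKA − 4OHT wells and 189, 269 and 155 TPM in the OSKA + 4OHT wells, with overlap and a ratio of means of 1.63. The ratio of *Meg3* to *Rian* in a well was 0.298, 0.223 and 0.272 and then 0.491, 0.337 and 0.485, so *Meg3* stood higher against *Rian* in every treated well. This ratio was not tested.

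The protein-coding genes of the *Dlk1-Dio3* domain are *Dlk1*, *Rtl1* and *Dio3*. *Dlk1*, at chr12:109452823-109463336 on the plus strand (ENSMUSG00000040856), codes for a transmembrane protein of the Notch ligand family that holds back fat cell differentiation. It was near the filter, at 1.70, 1.90 and 1.07 TPM without the ligand and 3.19, 0.444 and 1.78 TPM with it. The treated wells held both the highest and the lowest value, and the log2 fold change of -0.02 (95% CI -1.52 to 1.48, limma-trend adjusted p = 0.991) leaves a wide range. *Rtl1*, a retrotransposon-derived gene of placental vessels that runs antisense to part of the domain, was at 1.41, 2.54 and 2.52 TPM and then 0.616, 0.323 and 0.456 TPM. Its wells did not overlap, downward, but it reached the filter only through the control wells and did not pass (log2 fold change -1.44 ± 0.52, limma-trend adjusted p = 0.180). *Dio3*, the deiodinase that inactivates thyroid hormone, was listed at 0 in the 3 OSKA − 4OHT wells and at 3.36, 4.37 and 3.32 TPM in the OSKA + 4OHT wells, with an adjusted p of 0.0276 in limma-trend. It reached the filter only through the group in which it is high, and a listed 0 does not show absence: 5708 genes had a median over 20 TPM, and 97 of those were at 0 in some well. Of the 13 tested genes of the domain and its flanks, *Meg3* rose and 0 fell, leaving aside *Dio3*, whose call the filter favoured, beside 3.52% and 1.97% of all tested genes.

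**Figure D3:**
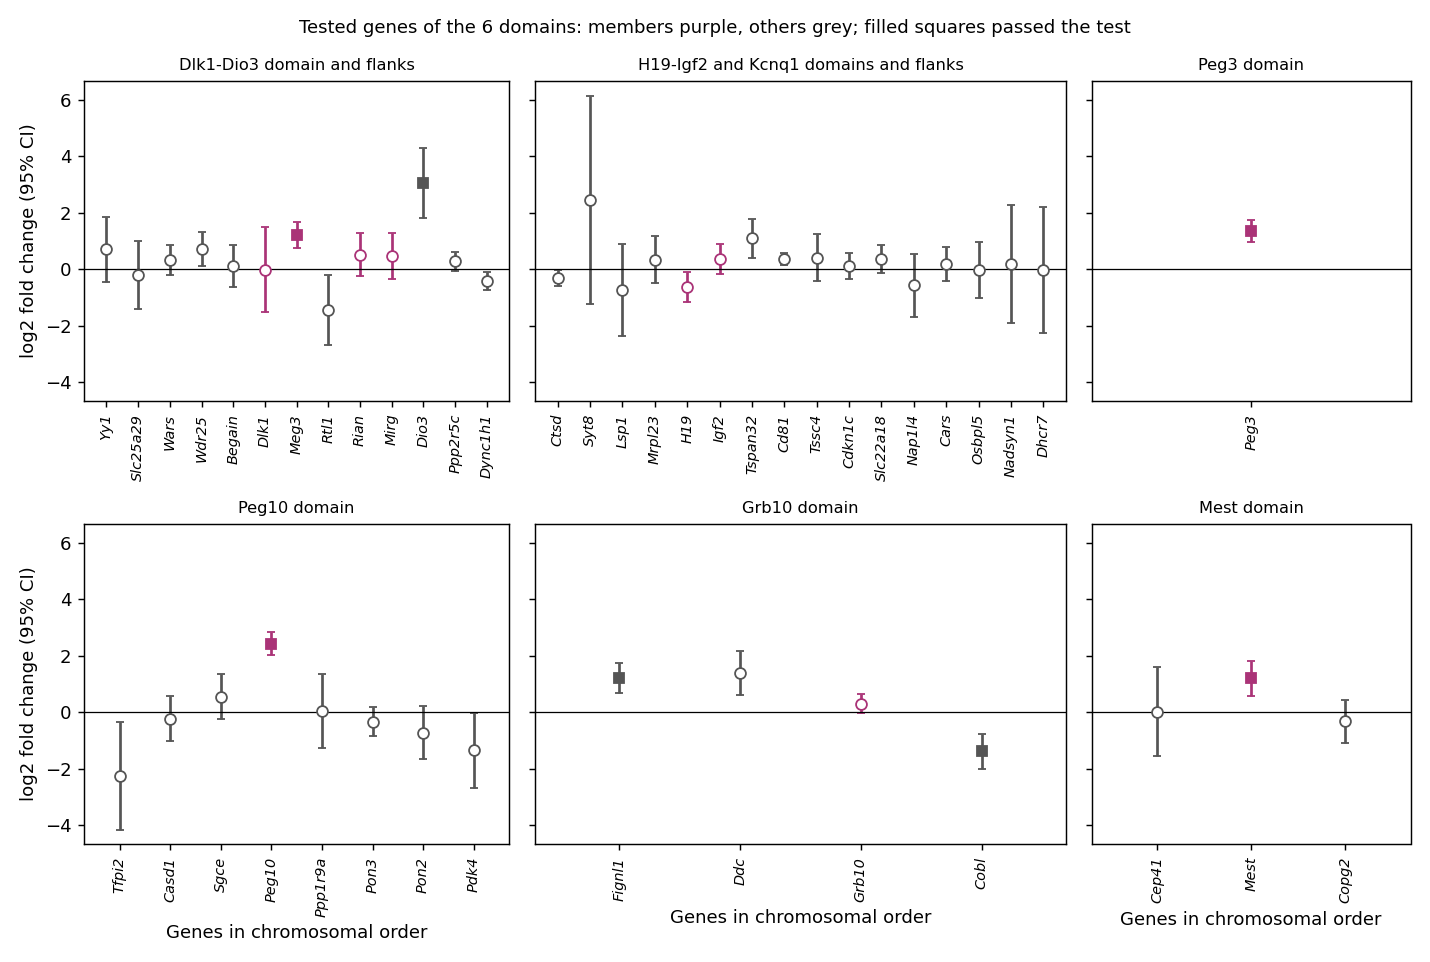
The log2 fold change and its 95% confidence interval on the log2(TPM + 0.5) scale, for the tested genes of 6 imprinted domains and their flanks in chromosomal order (spacing is not to scale), members in purple, other genes in grey and filled squares for an adjusted p under 0.05. *Meg3*, *Peg3*, *Mest*, *Peg10*, *Dio3* and *Fignl1* are filled above the zero line and *Cobl* is filled below it. The value of *Dio3* is set by the pseudocount, since its OSKA − 4OHT wells are listed at 0.

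*H19* was the most abundant member in each of the 6 wells. This noncoding RNA, read from chr7:142575529-142578143 on the minus strand (ENSMUSG00000000031), was at 466, 484 and 299 TPM in the OSKA − 4OHT wells and at 232, 306 and 255 TPM in the OSKA + 4OHT wells. The third control well lay within the range of the treated wells, so the groups overlapped. In limma-trend its log2 fold change was -0.63 (95% CI -1.16 to -0.11), and the p of 0.0255 became 0.165 after adjustment. *Igf2*, the growth factor gene at chr7:142650766-142666816 on the same strand (ENSMUSG00000048583), was at 21.2, 28.1 and 24.6 TPM and then 32.1, 38.8 and 25.0 TPM. The third treated well lay among the control wells, and the log2 fold change of 0.36 (95% CI -0.17 to 0.88) did not pass (limma-trend adjusted p = 0.414). This fold change was 0.207 without OSKA + 4OHT replicate 2 and 0.519 without OSKA + 4OHT replicate 3. A predicted gene, *Gm49394*, has a transcript identical to *Igf2* over 3598 bases and was at most at 0.262 TPM.

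Set against each other, *H19* and *Igf2* separated the groups where neither did alone. The ratio of *H19* to *Igf2* was 22.0, 17.2 and 12.2 in the OSKA − 4OHT wells and 7.22, 7.89 and 10.2 in the OSKA + 4OHT wells, a mean of 17.1 ± 4.90 (SD) against 8.44 ± 1.57. Every treated well had the lower ratio, a description with no test. *H19* made up 60.0%, 55.4% and 50.2% of the summed level of the 10 members in the OSKA − 4OHT wells and 29.2%, 32.7% and 35.3% in the OSKA + 4OHT wells. The sum itself was 595 to 874 TPM and 722 to 935 TPM, and these ranges overlapped.

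**Figure D4:**
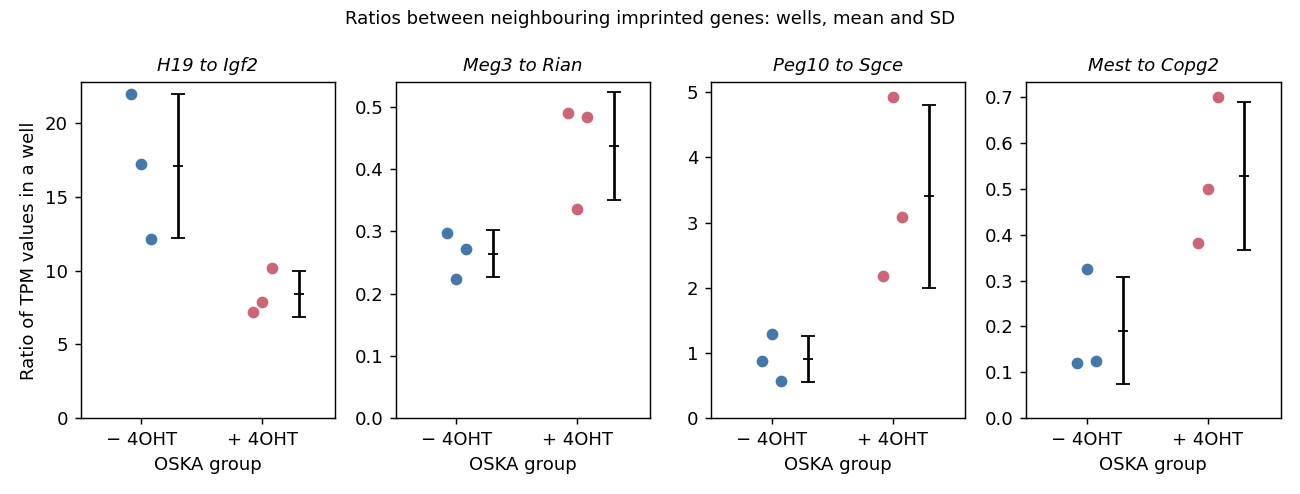
Ratio of TPM values of 2 neighbouring genes in each well (points) with the group mean and SD (black), for *H19* to *Igf2*, *Meg3* to *Rian*, *Peg10* to *Sgce* and *Mest* to *Copg2*, each axis starting at 0. The *H19* to *Igf2* ratio is lower in all 3 OSKA + 4OHT wells (7.22 to 10.2) than in all 3 OSKA − 4OHT wells (12.2 to 22.0), and the other 3 ratios are higher.

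In the list of *H19*, *Igf2*, the adjoining *Kcnq1* domain and the flanks, 0 of 16 tested genes passed in limma-trend, where 3.52% of all tested genes rose and 1.97% fell, with 4 at an unadjusted p under 0.05, beside 21.3% of all tested genes. *Cdkn1c*, the maternally expressed inhibitor of cyclin-dependent kinases, was at 22.1, 19.2 and 25.4 TPM and then 26.0, 20.3 and 25.2 TPM (log2 fold change 0.10, limma-trend adjusted p = 0.804). *Kcnq1ot1*, the noncoding RNA that silences that domain, stood between 0.277 and 0.495 TPM in all wells and was too low to be tested.

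*Grb10* codes for an adaptor protein that binds the insulin and IGF1 receptors and dampens their signal. The gene, chr11:11930508-12038683 on the minus strand (ENSMUSG00000020176), was at 153, 157 and 130 TPM without the ligand and at 201, 180 and 164 TPM with it. All treated wells were above all control wells, by little. The log2 fold change of 0.30 (95% CI -0.03 to 0.64) did not pass (limma-trend adjusted p = 0.271). Of the other genes on its flanks, *Fignl1*, a DNA repair ATPase, rose from 8.98 ± 1.53 to 21.5 ± 3.42 TPM (SD, n = 3 each, limma-trend adjusted p = 0.0321), and *Cobl*, an actin nucleator, fell from 130 ± 34.0 to 49.4 ± 11.5 TPM (limma-trend adjusted p = 0.0343). Both calls were lost in every fit that left out a well.

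Since *Igf2* is a ligand and *Grb10* an inhibitor of the insulin-like growth factor axis, the other parts of that axis are given beside them. Of 21 tested genes, 3 rose and 5 fell in limma-trend, where the background was 3.52% and 1.97% of all genes. The receptor *Igf1r*, through which both IGFs signal, fell from 38.7, 39.8 and 37.2 TPM to 12.1, 13.1 and 9.40 TPM (log2 fold change -1.71 ± 0.18, limma-trend adjusted p = 0.00726). The docking proteins that relay its signal fell as well, *Irs2* by 1.56 and *Irs1* by 1.51 on the log2 scale (limma-trend adjusted p = 0.0163 and 0.0263). *Igf2r*, the maternally expressed receptor that clears IGF2, was at 42.5, 42.7 and 41.4 TPM and then 73.0, 69.7 and 52.1 TPM, and did not pass (log2 fold change 0.60, limma-trend adjusted p = 0.108).

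Of the 6 tested secreted IGF binding proteins, 3 rose and 2 fell, beside 3.52% and 1.97% of all tested genes. *Igfbp3*, the most abundant of those listed at 1975 and 1504 TPM, did not pass (limma-trend adjusted p = 0.179). *Igfbp2* rose from 3.28, 5.15 and 3.25 TPM to 48.4, 56.0 and 30.3 TPM, a log2 fold change of 3.35 ± 0.31 (limma-trend adjusted p = 0.00464). *Igfbp5* rose by 2.19 and *Igfbp6* by 1.02 on the log2 scale (limma-trend adjusted p = 0.00367 and 0.0171). *Igfbp7*, a relative with weak affinity for IGFs, fell by 2.19 and *Igfbp4* by 0.89 (limma-trend adjusted p = 0.00697 and 0.0289). Of the 6 fits that left out a well, *Irs1* and *Igfbp4* passed in 0, *Irs2* in 1 (without OSKA + 4OHT replicate 3), *Igfbp6* in 2 (without OSKA − 4OHT replicate 3 or OSKA + 4OHT replicate 3) and *Igfbp7* in 4 (not without OSKA − 4OHT replicate 2 or OSKA + 4OHT replicate 1), while *Igf1r*, *Igfbp2* and *Igfbp5* passed in all 6.

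Among 50 other imprinted genes, of which 31 could be tested and 4 were listed at 0 in every well, 2 were called higher and 0 lower in limma-trend, beside 3.52% and 1.97% of all tested genes. One is *Dio3*, which reached the filter only through its treated wells, and the other is *Nnat*, a paternally expressed proteolipid gene of the endoplasmic reticulum, at 17.4, 14.4 and 20.8 TPM without the ligand and 101, 89.3 and 60.0 TPM with it. Its groups were far apart, and the log2 fold change was 2.20 ± 0.25 (limma-trend adjusted p = 0.00861), a call lost without OSKA + 4OHT replicate 1 or 2 (adjusted p at most 0.0586). The 31 genes had a median log2 fold change of 0.06 and 11 of them an unadjusted p under 0.05, beside 21.3% of all tested genes. In 6 of them all treated wells lay above all control wells, and in 7 all lay below, beside 18.1% and 10.0% of all tested genes, and *Dio3* above and *Rtl1* and *Zdbf2* below reached the filter only through the group in which they are high. The 0 lower depends on the processing: 3 genes were lower with trimmed mean scaling (*Atp10a*, *Gnas*, *Peg13*), 2 with quantile normalization (*Atp10a*, *Peg13*) and 2 without the trend (*Rtl1*, *Zdbf2*), beside the same *Nnat* and *Dio3* higher, and with the replicate block none was called. *Plagl1*, a paternally expressed zinc finger gene known to act on other imprinted genes, was at 39.7, 41.2 and 29.8 TPM and then 35.9, 29.1 and 33.1 TPM, with overlap (log2 fold change -0.16, limma-trend adjusted p = 0.661).

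**Figure D5:**
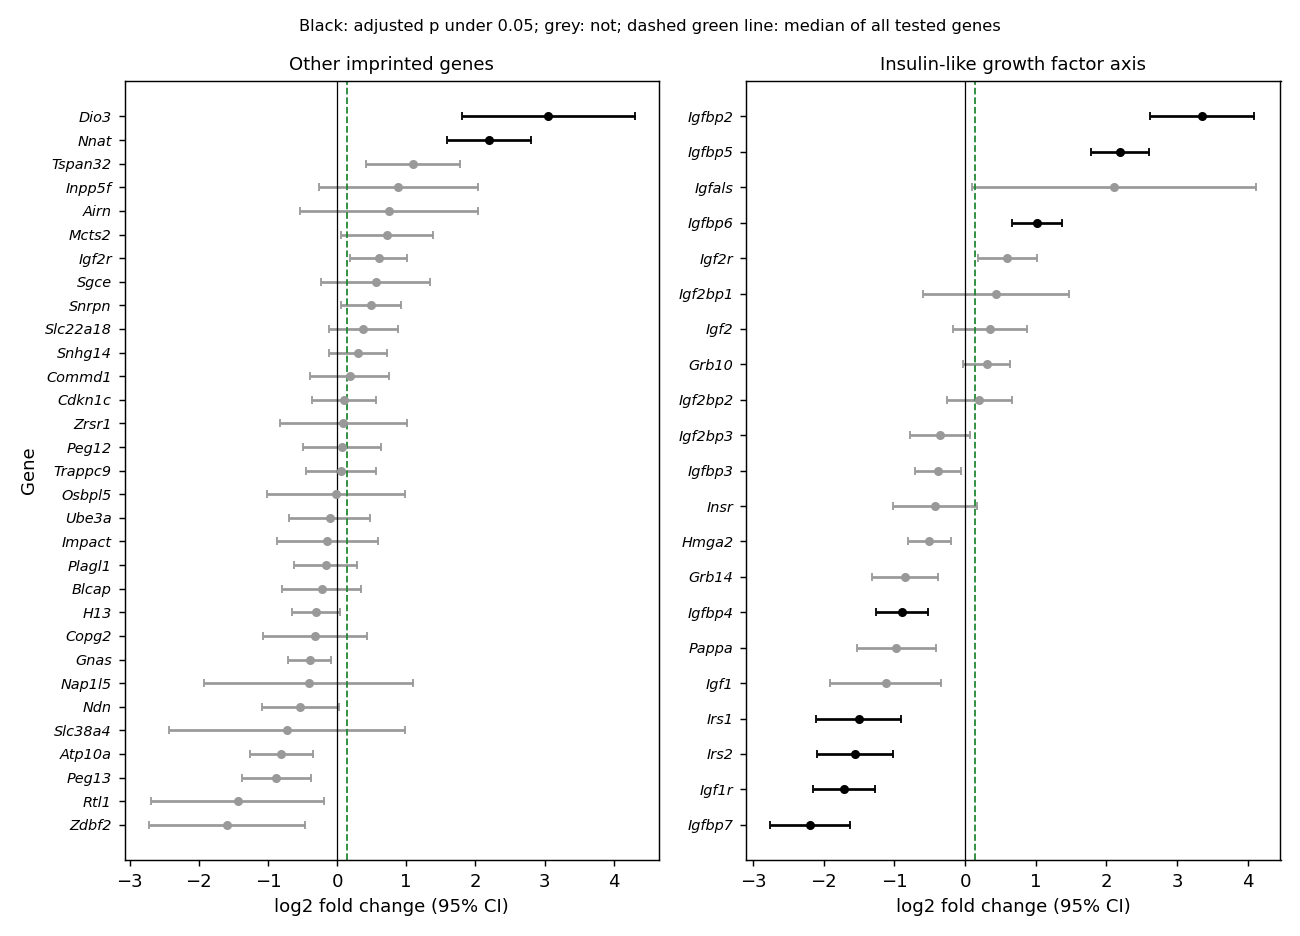
The log2 fold change and 95% confidence interval on the log2(TPM + 0.5) scale for 31 other imprinted genes (left) and 21 genes of the insulin-like growth factor axis (right, *Igf2* and *Grb10* included), black for an adjusted p under 0.05, with the median of all tested genes as a dashed line. On the left *Dio3* and *Nnat* are black, and on the right 3 genes are black above zero and 5 below. The value of *Dio3* is set by the pseudocount.

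The transcripts of genes whose proteins keep or remove imprints were also read. Of 19 tested genes 1 rose and 0 fell in limma-trend, near the 3.52% and 1.97% of all tested genes. *Tet2*, a dioxygenase that oxidises 5-methylcytosine, rose from 13.2, 10.7 and 11.7 TPM to 35.4, 38.4 and 30.3 TPM (log2 fold change 1.51 ± 0.18, limma-trend adjusted p = 0.00984), a call lost without OSKA + 4OHT replicate 1 or 2 (adjusted p at most 0.0586). *Zfp57*, which guards methylated imprints, was at 31.6, 44.6 and 30.8 TPM and then 80.9, 55.6 and 55.9 TPM, with no overlap and no pass (log2 fold change 0.84, limma-trend adjusted p = 0.0983). *Dnmt1*, the maintenance methyltransferase, was at 20.2, 30.9 and 22.3 TPM and then 38.5, 29.8 and 50.4 TPM, with overlap (log2 fold change 0.67, limma-trend adjusted p = 0.208). In the list of Notch and fat cell factors around *Dlk1*, 1 of 14 tested genes rose, beside 3.52% of all tested genes. It was *Sox9*, the chondrocyte transcription factor, which went from 2.18 ± 0.589 to 9.69 ± 0.592 TPM (limma-trend adjusted p = 0.0159), and it passed only without OSKA − 4OHT replicate 1 or 3 among the 6 fits that left out a well (adjusted p up to 0.082).

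For each member that passed, the 2 genes with the most similar profile over the 6 wells were taken by the root mean square difference of centred log2 values. For *Peg10* these were *Pkp1* (0.07) and *Klk14* (0.10), for *Peg3* *Etnk2* (0.05) and *Plekhg1* (0.08), for *Meg3* *Dact2* (0.07) and *Adamts4* (0.09), and for *Mest* *Gm49759* (0.11) and *Ifrd2* (0.11). *Etnk2* averaged 0.449 TPM without the ligand and 1.83 TPM with it, so it reached the filter only through its treated wells. Its ratio of means was 4.08, beside 2.63 for *Peg3*, so its nearness rests on the pseudocount. The 6 wells fall into 2 groups, so any gene that rises by a like amount is near, and the measure is a description.

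Some cell type markers differed between the groups. The summed level of 11 fibroblast markers was 9920 to 11500 TPM in the OSKA − 4OHT wells and 6460 to 7740 TPM in the OSKA + 4OHT wells, but the genes went both ways: *Col1a2*, *Pdgfrb*, *Fn1* and *S100a4* fell, while *Col3a1* (433 to 1023 TPM) and *Lum* (7.26 to 39.1 TPM) rose. Over all tested genes 3.52% rose and 1.97% fell. Of the 6 fits that left out a well, *Col3a1* and *Lum* passed in 6, *S100a4* in 5, *Pdgfrb* in 3, *Fn1* in 1 and *Col1a2* in 0. The sum of 10 pluripotency markers was 13.3 to 15.9 and 61.3 to 81.3 TPM, with 5 of 8 tested called higher, beside 3.52% of all tested genes, of which *Nanog*, *Zfp42*, *Dppa5a* and *Gdf3* reached the filter only through their treated wells and *Tdgf1* was above it in both groups. Leaving out a well, *Dppa5a* and *Gdf3* passed in 6 fits, *Tdgf1* in 2, and *Nanog* and *Zfp42* in 1. A lower share of cells of a type and less RNA per cell cannot be told apart in bulk RNA. The sum of 8 macrophage markers was 146 to 172 and 86.1 to 107 TPM, a difference carried mostly by *Lyz2* (95.2 to 51.8 TPM). *Lyz2* was the 1 gene of the 8 that fell, beside 1.97% of all tested genes. It passed in 1 of the 6 fits that left out a well. Between groups 6 of the 8 overlapped. *Lyz2* and *Csf1r* were lower in every treated well, as were 10.0% of all tested genes. The marker sums of the myogenic (0.651 to 10.4 and 0.642 to 2.24 TPM), adipocyte (2.33 to 7.97 and 2.18 to 9.36), chondrocyte (15.2 to 17.4 and 11.2 to 26.7), hepatoblast (0 to 1.35 and 0.592 to 4.40) and endothelial lists (21.8 to 28.9 and 28.1 to 37.6) overlapped between groups, as did the neural list (161 to 188 and 147 to 173). *Myod1*, *Myog*, *Myf5*, *Myf6*, *Pax7* and *Pax3*, 6 of the 8 myogenic markers, and *Adipoq*, *Plin1*, *Cidec*, *Lep* and *Cfd*, 5 of the 7 adipocyte markers, were listed at 0 in all wells, as were 3 of 5 hepatoblast markers. The part of the fibroblast, pluripotency and macrophage values in the members' changes was not tested.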

How the data were processed

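RNA of 6 wells was sequenced as polyA libraries, trimmed with Trim Galore and quantified with Salmon by the authors, who deposited 1 TPM value per gene and well. The versions, the annotation release and the strand setting are not given in the sources used here. Each well adds up to 1000000 TPM, so depth is unknown, and 15814 to 18230 genes were above 0. The authors also deposited columns of their own comparison (log2 fold change, log2 average level, F score and p-value), which were not used. TPM is not a count, so limma-trend (limma 3.58.1, R 4.3.3) was fitted to log2(TPM + 0.5) without a block, over genes averaging 1 TPM or more, with Benjamini-Hochberg adjustment. Symbols and positions came from GENCODE M21 on GRCm38, promoters and miRNAs from RefSeq. Tables were made with Python 3.11.15 and pandas 2.3.3, and similar transcripts were searched with BLAST 2.17.0 at 90% identity over at least 100 bases.

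The members and lists were chosen with earlier results of these data known. All members, the genes of each list that passed (at most the 3 largest rises and falls) and 9 fixed genes are named, and the genes with the nearest profiles. *Sgce*, *Copg2*, the neighbours of *Peg3* and the untested genes were added for their position. *Irs1*, *Igfbp3*, *Igfbp4*, *Tet1*, *Dnmt3b* and the imprinted genes called only under an alternative were named after their values were seen. In simulated data with 15382 genes, 15182 were left unchanged. There the test recovered 8 of 100 changes of 1 and 32 of 100 changes of 2 on the log2 scale, with 5 false calls. The real fit called 845 genes, so the share of changed genes may differ and these rates do not give its power. A gene that did not pass is not shown to be unchanged. With 3 wells against 3 an exact 2-sided permutation test of a single gene cannot go below 0.1.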

Additional observations from a re-analysis of the deposited data

How the results depend on the processing

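The alternatives were pseudocounts of 0.1 and 2, no filter, a filter of 5 TPM, trimmed mean and quantile scaling, the replicate block, no trend, a robust fit, and leaving out each well. The number of members that rose, 4, was 3 or 4 in the fits of all wells except the replicate block, and 1 to 3 without one well. *Peg10* passed in all 15 alternatives. *Mest* passed only with the pseudocount of 2 and the filter of 5 TPM. The count of other imprinted genes, 2, was 1 with the filter of 5 TPM, 5 with trimmed mean scaling (3 of them lower), 4 with quantile normalization (2 lower), 4 without the trend (2 lower) and 1 to 3 without one well (1 without OSKA + 4OHT replicate 1 or 2). The scalings moved the median log2 fold change of all genes from 0.144 to 0.013 (trimmed mean) and -0.005 (quantile), and every member kept its direction under both. *Dlk1*, at -0.021, was 0.038 with a pseudocount of 2 and ranged from -0.464 to 0.519 without one well, above 0 without OSKA − 4OHT replicate 1 (0.038) or 2 (0.101) or OSKA + 4OHT replicate 2 (0.519). *Dlk1* and *Mirg* were below the 5 TPM filter. The cause of these differences was not tested.

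The labels do not say whether the replicate numbers pair the wells. The deviations of same-numbered wells from their group means correlated at 0.024, 0.034 and 0.084. Those of differently numbered wells correlated at -0.062 to 0.033. Such low values cannot decide whether the wells were paired, so both fits are given. With the replicate block the member count was 1 (*Peg10*, adjusted p = 0.0499 in limma-trend), the count of other imprinted genes was 0, and 47 genes passed in all. The *H19* to *Igf2* ratio of means, 0.493, was 0.495 with a pseudocount, and the noncoding RNA sum, 1.63, was 1.46 and 1.52 under the scalings.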
